A study of Mus musculus with 24 samples.

Results

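Ischemia-reperfusion injury (I/R) was compared with sham surgery in heart tissue of mice labelled MuRF1 Tg+. In I/R a tie closes the left anterior descending coronary artery for a time and is then opened, and the tissue compared here lay below the tie. The comparison was chosen by the labels and holds 6 of the 24 arrays of the series, with 3 I/R hearts and 3 sham hearts. All of these hearts are labelled MuRF1 Tg+, so that the sham controls carry the transgene label too, and the animals were 12 to 16 weeks old. MuRF1, the product of Trim63, is a ubiquitin ligase of striated muscle that binds the sarcomere. The wild-type groups of the series are MuRF1+/+ and were matched for strain, but the strain is named only for the reference pups (C57BL/6). The sources used here give no promoter, line or founder for the transgene. Nor do they give the lengths of ischemia and of reperfusion before harvest.

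Each heart piece was hybridised with 1 two-colour array that carries 41174 probes. Heart RNA was in the Cy5 channel and a pool of whole day 1 pups in the Cy3 channel, so that every value below is a log2 ratio of heart over pup. A value of 0 means that heart and pup RNA gave equal normalised signals for that probe, and levels of different genes are not set against each other. The 6 samples are labelled as separate biological replicates. The other groups used here are MuRF1 Tg+ I/R and MuRF1 Tg+ sham tissue from above the tie, taken from the same hearts, and wild-type I/R and wild-type sham tissue from below it, with 3 arrays each.

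As background, tissue cut off from its coronary artery loses oxygen and fuel, and return of blood brings oxidants and leukocytes. Neutrophils arrive first and monocytes follow. Cardiomyocytes depend on mitochondrial oxidation of fatty acids and other fuels, and their beat depends on calcium release from the sarcoplasmic reticulum onto actin and myosin filaments. Cytokines of the IL-6 family act through the shared receptor gp130 and the transcription factor STAT3, which switches on Socs3, an inhibitor of the same pathway. Metallothioneins are small proteins that bind zinc and copper, and metals, glucocorticoids and STAT3 are known to induce their genes through sites in their promoters.

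The promoter stretches of Mt1, Mt2 and Socs3 are shown because these genes carry the metallothionein and IL-6 family results below. Each is the 250 bases before the gene's start, from RefSeq with build GRCm38.p6, written 5′ to 3′ on the strand of the gene. All 3 genes were found in the promoter table. Capitals mark matches on either strand to the core of the metal response element, TGCACNC or TGCGCNC, in Mt1 and Mt2, and to the STAT site TTCNNNGAA in Socs3.
Mt1, chr8:94178839-94179088, plus strand: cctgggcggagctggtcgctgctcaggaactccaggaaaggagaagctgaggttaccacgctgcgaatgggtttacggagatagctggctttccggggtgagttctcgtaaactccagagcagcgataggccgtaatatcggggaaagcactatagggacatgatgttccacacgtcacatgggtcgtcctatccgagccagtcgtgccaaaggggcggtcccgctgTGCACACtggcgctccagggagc
Mt2, chr8:94172368-94172617, plus strand: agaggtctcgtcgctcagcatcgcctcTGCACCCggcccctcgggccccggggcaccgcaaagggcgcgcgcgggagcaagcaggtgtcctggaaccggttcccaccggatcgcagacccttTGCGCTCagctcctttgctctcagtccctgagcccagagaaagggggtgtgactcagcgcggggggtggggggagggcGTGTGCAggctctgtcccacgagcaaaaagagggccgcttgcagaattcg
Socs3, chr11:117969367-117969616, minus strand: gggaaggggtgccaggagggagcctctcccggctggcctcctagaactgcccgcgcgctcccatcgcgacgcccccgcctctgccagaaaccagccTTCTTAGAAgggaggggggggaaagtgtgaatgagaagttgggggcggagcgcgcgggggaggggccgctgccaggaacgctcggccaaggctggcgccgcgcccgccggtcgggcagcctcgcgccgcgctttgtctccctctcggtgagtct
The Mt1 window holds 1 match to the metal response element core and the Mt2 window holds 3, 1 of them on the other strand. The windows follow the gene's start in RefSeq, and bases outside them were not searched. These numbers are therefore not counts for the whole promoters. No match overlaps another. Of 32851 promoter stretches of this length in the table, 21.4% hold at least 1 of the 2 cores and 1.26% hold at least 3. Socs3 holds 1 match, and 7.02% of the stretches hold a STAT site. A match describes the letters in the window and says nothing about binding in these hearts.

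The heart channel was weaker on the I/R arrays of this comparison than on the sham arrays. On I/R arrays 1, 2 and 3, the share of Cy5 spots well above their local background was 28.3%, 13.5% and 20.1%. On the 3 sham arrays it was 35.2%, 34.6% and 34.9%. I/R arrays 2 and 3 are among 5 arrays of the series, all from I/R hearts, with a share under 25%. Correlations of the log2 ratio over 11419 features ran from 0.791 to 0.906 between I/R arrays and from 0.985 to 0.990 between sham arrays. I/R array 1 correlated with the sham arrays at 0.916 to 0.918, I/R array 2 at 0.632 to 0.643 and I/R array 3 at 0.7 to 0.714. The median SD per feature was 0.162 among I/R arrays and 0.0747 among sham arrays.

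On all 3 I/R arrays, the difference from sham followed the level in sham tissue. Spearman's correlation across features between a feature's mean sham ratio and its difference from it was -0.573 on I/R array 1, -0.837 on I/R array 2 and -0.741 on I/R array 3. Features are not independent replicates, and the sham mean enters both sides. For a sham array set against the other sham arrays, the value lay between -0.322 and 0.186. For wild-type I/R tissue below the tie it was -0.826 on the array with 9.90% of Cy5 spots above background, and -0.00810 and -0.0433 on the arrays with 38.3% and 37.9%. Features with a mean sham ratio of 1 to 2 had median differences of -0.33, -0.95 and -0.86 on I/R arrays 1, 2 and 3, and those with a sham ratio of -2 to -1 had 0.29, 0.97 and 0.73. In the first of these bins 1.60% of 752 features rose and 62.1% fell, and in the second 53.4% of 813 rose and none fell. The part of the weak heart channel in the results was not tested. Counts of most groups of genes are therefore also given after leaving out the 5 weak arrays. This leaves I/R array 1 against 3 sham arrays and assumes that this array varies like those of the other groups. The difference is then that of I/R array 1 from the sham mean, the same as without only I/R arrays 2 and 3. That array also entered the calls with all arrays, so these counts are no separate support for them. Medians on the single I/R arrays are given for part of the groups and plotted for more of them.

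**Figure D1:**
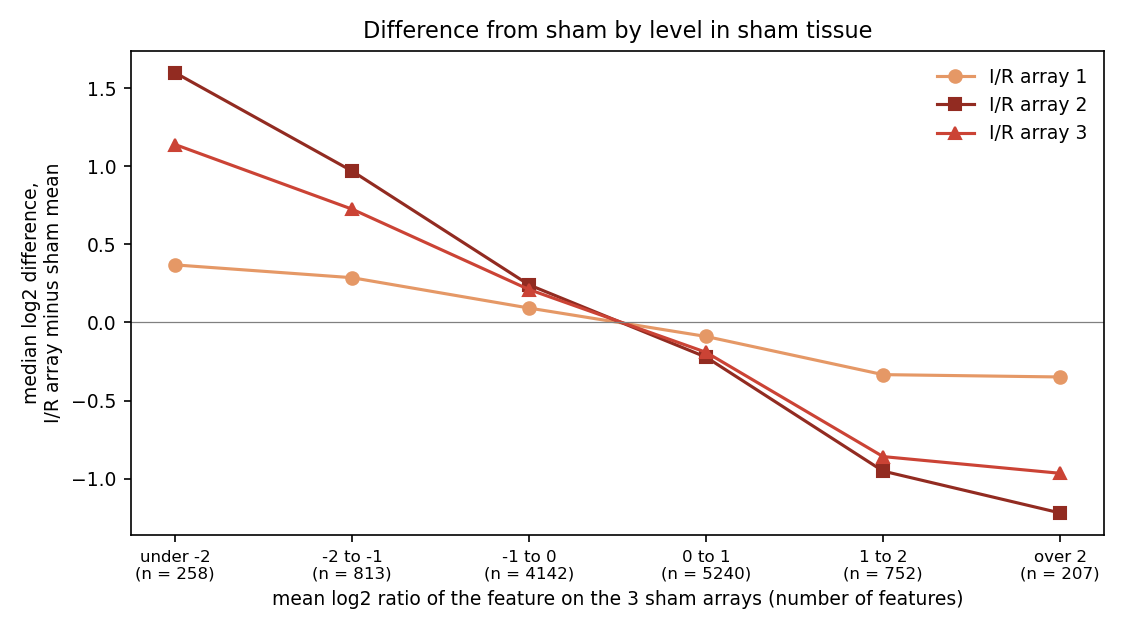
Median log2 difference from the sham mean (vertical axis) on each of the 3 I/R arrays, for features binned by their mean log2 ratio on the 3 sham arrays (horizontal axis, with the number of features). All 3 lines run downward, from 1.60 to -1.22 on I/R array 2 and from 0.37 to -0.35 on I/R array 1.

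With limma's fit of all 24 arrays and Benjamini-Hochberg adjustment, 3703 of 11419 features (32.4%) passed an adjusted p of 0.05 between I/R and sham tissue. Of these, 1750 rose (15.3% of all features) and 1953 fell (17.1%). A feature is a gene, or a transcript without a gene name, read by its brightest probe. The 3 I/R arrays and the 3 sham arrays did not overlap for 6120 features (53.6%). I/R array 1 lay above all sham arrays for 98.0% of the features that rose, against 39.0% of all features, and below all sham arrays for 96.7% of those that fell, against 36.8% of all. I/R array 1 entered both the calls and these shares. Without the weak arrays 1544 features passed (13.5%), 776 higher (6.80%) and 768 lower (6.73%), and 89.7% of them were among the 3703 in the same direction. Without only I/R arrays 2 and 3, 155 features passed (1.36%), 85 higher (0.744%) and 70 lower (0.613%). Features that rose made up 47.3% of the calls with loess, 38.0% with Agilent's own log ratio, 35.3% with the Cy5 channel alone, 57.5% among probes well above background on all 6 arrays and 0.576% with each array centred on its median, where 20 features rose. Centring on the median moved the median difference of all features to -0.514 and Agilent's ratio moved it to -0.238, so rises and falls below are relative to the loess curve. With median centring 5 of 9 neutrophil markers, 1 of 25 monocyte and macrophage markers and none of the IL-6 family, immediate early, cardiac stress and cytosolic ribosomal lists rose. Of the genes named below as higher, Atp5e, Cebpb, Ctps, Ddit4, Gpx1, Hspb1, Nfil3, Nppa, Plin2 and Rplp1 had differences below 0 with median centring, and Atp5e also with Cy5 alone. Among the 4596 features well above background on all 6 arrays, 2159 passed (47%), 1242 higher (27%) and 917 lower (20%). Of the features that fell, 45.1% were well above background on all 3 I/R arrays and 13.4% on none of them.

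The arrays sat on 7 slides, and 1 slide held both an I/R array (array 2) and a sham array (array 3) of this comparison. On that slide the difference had the sign of the call for 1749 of the 1750 features that rose and 1950 of the 1953 that fell, with both arrays also part of the calls. With the slide as a fixed block, 249 features passed (2.18%), of which 108 were higher (0.946%) and 141 lower (1.23%), and all 249 were among the 3703 in the same direction. Of 163 called genes that the naming rule selects, 38 also passed with the slide as a block and 107 without the weak arrays. The number of arrays limits the precision throughout. Values after ± are standard errors of the fit. In what follows a call "holds with the slide block" where the gene also passed in that fit, and a gene of the naming rule that is given without that remark did not pass there. Differences are in log2 units. Genes that missed the threshold without the weak arrays are pointed out. That fit rests on I/R array 1 alone, and far fewer features passed where only I/R arrays 2 and 3 were left out. A gene without this remark is therefore not shown to hold apart from the weak arrays.

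The tissue label was checked against markers of heart muscle. Of 11 ventricular cardiomyocyte markers tested, 10 were well above background on all 6 arrays, and their median log2 ratio in sham tissue was 4.26. Myh6, the fast alpha myosin heavy chain of the mouse ventricle, had log2 ratios of 4.04, 2.28 and 2.85 on the I/R arrays, against 4.38, 4.44 and 4.26 on the sham arrays. These ratios put the gene far above the pup reference on every array.

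Trim63 itself was lower in I/R tissue on its bright probe. Its log2 ratio was 1.64, 0.34 and 0.27 on the I/R arrays and 2.40, 2.22 and 2.23 on the sham arrays. The groups did not overlap, and I/R array 1 lay nearest to sham. The difference was -1.53 ± 0.39 (limma adjusted p = 0.00713), but it missed the threshold without the weak arrays (-0.65, adjusted p = 0.0731) and with the slide as a block (-1.45, adjusted p = 0.155). A second, dimmer probe differed by -0.01 and was above background on none of the I/R arrays. Nothing in the labels says whether the transgene carries either probe's target, and these values are therefore no check of the genotype.

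Metallothionein transcripts were far higher in I/R tissue. Mt2 had log2 ratios of 2.17, 3.11 and 4.02 on the I/R arrays, against -2.94, -3.33 and -2.96 on the sham arrays. Every I/R array lay above the pup reference and every sham array below it. The difference was 6.18 ± 0.75, or 72.3-fold (adjusted p = 3.51e-05), and it also passed with the slide as a block (5.52, adjusted p = 0.0302) and without the weak arrays (5.25, adjusted p = 5.98e-06). Mt1 had 1.97, 2.02 and 2.69 on the I/R arrays, against -0.60, -1.07 and -0.75 on the sham arrays. Its difference was 3.03 ± 0.49 (adjusted p = 0.000358), and a dimmer Mt1 probe differed by 0.10. Of 3 metallothioneins tested, 2 rose, with medians of 2.77, 2.82 and 3.49 on I/R arrays 1, 2 and 3. Mt1 and Mt2 are the genes whose promoter stretches are printed above. Mt2 had a mean sham ratio under -2, a range in which 48.8% of 258 features rose.

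**Figure D2:**
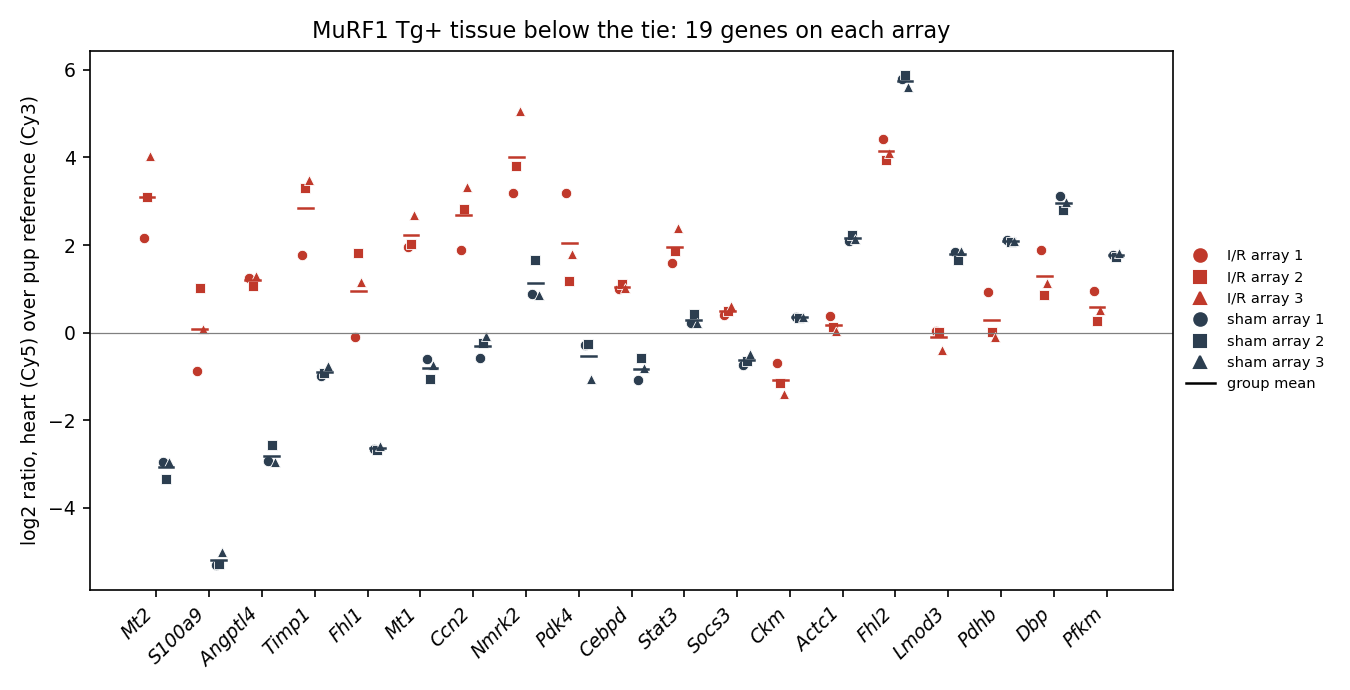
Log2 ratio of heart over pup reference (vertical axis) of 19 genes on each array, with the 3 I/R arrays in red left of the 3 sham arrays in dark blue, symbols for the array number and lines at the group means. For Mt2 the I/R arrays lie between 2.17 and 4.02 and the sham arrays between -3.33 and -2.94, and for Ckm the I/R arrays lie between -1.40 and -0.68 and the sham arrays between 0.33 and 0.36.

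Transcripts of neutrophils and of monocytes and macrophages were higher in I/R tissue. S100a9, which encodes a calcium-binding alarmin stored in neutrophils, had log2 ratios of -0.87, 1.03 and 0.08 on the I/R arrays, against -5.31, -5.27 and -5.0 on the sham arrays. Every I/R array lay far above every sham array, and the difference was 5.28 ± 0.69 (adjusted p = 7.48e-05). The call holds with the slide block. S100a8, which forms a pair with S100a9, had log2 ratios of -0.02, 0.56 and 0.26 on the I/R arrays, against -2.34, -2.25 and -2.15 on the sham arrays. It was not well above background on any sham array, so it was at least 5.57-fold higher in I/R tissue (means of 0.27 in I/R and -2.25 in sham tissue, adjusted p = 0.000185), and the call holds with the slide block. For such probes the dim group is set at the higher of its own signal and the lowest signal well above background on each array. A probe was kept where every array of some group was well above background. Genes dim in sham tissue, here and in other lists, thus entered only through a group where they are high. Of 17 neutrophil markers on the array, 9 were tested and 1 was well above background on all 6 arrays, so their counts are no test of the list. Of these 9 markers, 6 rose and 0 fell, against 2 and 0 with the slide block. Without only I/R arrays 2 and 3, 1 rose.

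Chil3, a chitinase-like protein of activated macrophages, had log2 ratios of 1.5, 2.16 and 2.08 on the I/R arrays, against -2.16, -2.06 and -2.06 on the sham arrays. No sham array was well above background, and the gene was at least 15.2-fold higher in I/R tissue (means of 1.91 in I/R and -2.09 in sham tissue, adjusted p = 2.55e-06); the call holds with the slide block. Lgals3, the galectin of activated macrophages, rose by 1.2 (adjusted p = 0.000121) and holds with the slide block. Arg1, an arginase of alternatively activated macrophages, was at least 2.21-fold higher in I/R tissue (adjusted p = 0.00552) but missed the threshold without the weak arrays (adjusted p = 0.0867). Of 25 monocyte and macrophage markers tested, 12 rose (48%) and 0 fell, beside 15.3% and 17.1% of all features. Their medians were 0.479, 0.541 and 0.386 on I/R arrays 1, 2 and 3. Without the weak arrays 12 rose, with the slide block 2, and without only I/R arrays 2 and 3 2. In bulk tissue, more cells of a type and more RNA per cell cannot be told apart.

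Chemokine transcripts rose in part. Among the chemokines, cytokines and adhesion molecules tested 42.9% rose and 7.14% fell, beside 15.3% and 17.1% of all features. Ccl2, which draws monocytes from the blood, had log2 ratios of 1.57, 1.76 and 1.74 on the I/R arrays, against 0.02, -0.01 and 0.10 on the sham arrays. All 3 I/R arrays lay above the pup reference and were well above background. Only 1 of 3 sham arrays was well above background, so sham ratios near 0 do not show a level equal to the reference. The difference was 1.66 ± 0.27 (adjusted p = 0.00032), and with Agilent's ratio it was 3.87. Ccl6 and Ccl9, chemokines made by myeloid cells, rose by 1.41 and 1.27 (adjusted p = 0.0193 and 0.00138). Icam1, to which leukocytes bind on endothelium, differed by 0.99 (adjusted p = 0.00704) and missed the threshold without the weak arrays (adjusted p = 0.421). Of 14 chemokines, cytokines and adhesion molecules tested, 6 rose and 1 fell, against 6 and 1 without the weak arrays and 0 and 1 with the slide block. Without only I/R arrays 2 and 3, 0 rose and 1 fell.

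Several genes of the IL-6 family pathway rose together. Stat3, its transcription factor, had log2 ratios of 1.58, 1.85 and 2.40 on the I/R arrays, against 0.23, 0.43 and 0.23 on the sham arrays. Its difference was 1.65 ± 0.28 (adjusted p = 0.000462), and the I/R and sham arrays did not overlap. Socs3, its inhibitor, had log2 ratios of 0.41, 0.50 and 0.60 on the I/R arrays, against -0.75, -0.64 and -0.49 on the sham arrays. The 3 I/R arrays differed little from each other, and the difference was 1.13 ± 0.12 (adjusted p = 7.84e-06). Cebpd, which encodes a transcription factor of the acute phase, had log2 ratios of 0.99, 1.12 and 1.02 on the I/R arrays, against -1.07, -0.58 and -0.81 on the sham arrays, a difference of 1.86 ± 0.22 (adjusted p = 2.49e-05). All 3 calls hold with the slide block. Cebpb, a related factor, rose by 1.33 on its bright probe and also holds there, while a dimmer probe differed by 0.04. Of 13 genes of this pathway tested, 7 rose and 2 fell, against 5 and 2 without the weak arrays and 4 and 0 with the slide block. Stat3 and Cebpb had a mean sham ratio between 0 and 1, a range in which 3.26% of 5240 features rose. Socs3 and Cebpd had one between -1 and 0, where 24.2% of 4142 features rose.

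Immediate early genes and glucocorticoid-responsive genes rose in part. Among the immediate early genes tested 50% rose, and among the glucocorticoid-responsive genes 60% rose and 6.67% fell. These shares stand beside 15.3% of all features that rose and 17.1% that fell. Junb, a subunit of the AP-1 transcription factor, had log2 ratios of 1.29, 2.02 and 1.92 on the I/R arrays, against 0.02, 0.13 and -0.01 on the sham arrays. The groups lay well apart, and the difference was 1.69 ± 0.24 (adjusted p = 0.000114). Maff, a small transcription factor of the same superfamily, rose by 1.25 (adjusted p = 0.000158), and both calls hold with the slide block. Of 18 immediate early genes tested, 9 rose and 0 fell, against 3 and 0 without the weak arrays and 2 and 0 with the slide block. Among 15 glucocorticoid-responsive genes, 9 rose and 1 fell, against 8 and 0 without the weak arrays and 3 and 0 with the slide block. This list shares Mt2, Cebpd and Pdk4 with other lists described here. Ddit4, an inhibitor of the growth kinase mTOR, rose by 1.83 (adjusted p = 0.000334) and holds with the slide block. Gadd45g and Cdkn1a, genes of growth arrest, rose by 2.19 and 1.08 (adjusted p = 0.000576 and 0.000313).

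Antioxidant and heme response genes moved in both directions. Hmox1, which breaks down heme, rose by 1.44 (adjusted p = 0.000185). Gpx1, a glutathione peroxidase, rose by 0.86 (adjusted p = 7.37e-05) and holds with the slide block. Prdx3 and Prdx5, peroxiredoxins of mitochondria, differed by -0.82 and -0.93 (adjusted p = 0.00137 and 0.00679) and missed the threshold without the weak arrays (adjusted p = 0.0515 and 0.132). Of 27 genes of this list tested, 4 rose (14.8%) and 4 fell (14.8%), against 6 and 1 without the weak arrays and 1 and 0 with the slide block. Over all features 15.3% rose and 17.1% fell.

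Small heat shock proteins moved in both directions. Hspb1 rose by 1.43 (adjusted p = 0.00187), while Hspb6 and Hspb8, relatives abundant in muscle, changed by -1.28 and -1.33 (adjusted p = 0.0143 and 0.00433). Of 18 heat shock proteins and chaperones tested, 4 rose (22.2%) and 8 fell (44.4%), beside 15.3% and 17.1% of all features. Without the weak arrays 1 rose and 8 fell, and with the slide block 0 and 0.

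**Figure D3:**
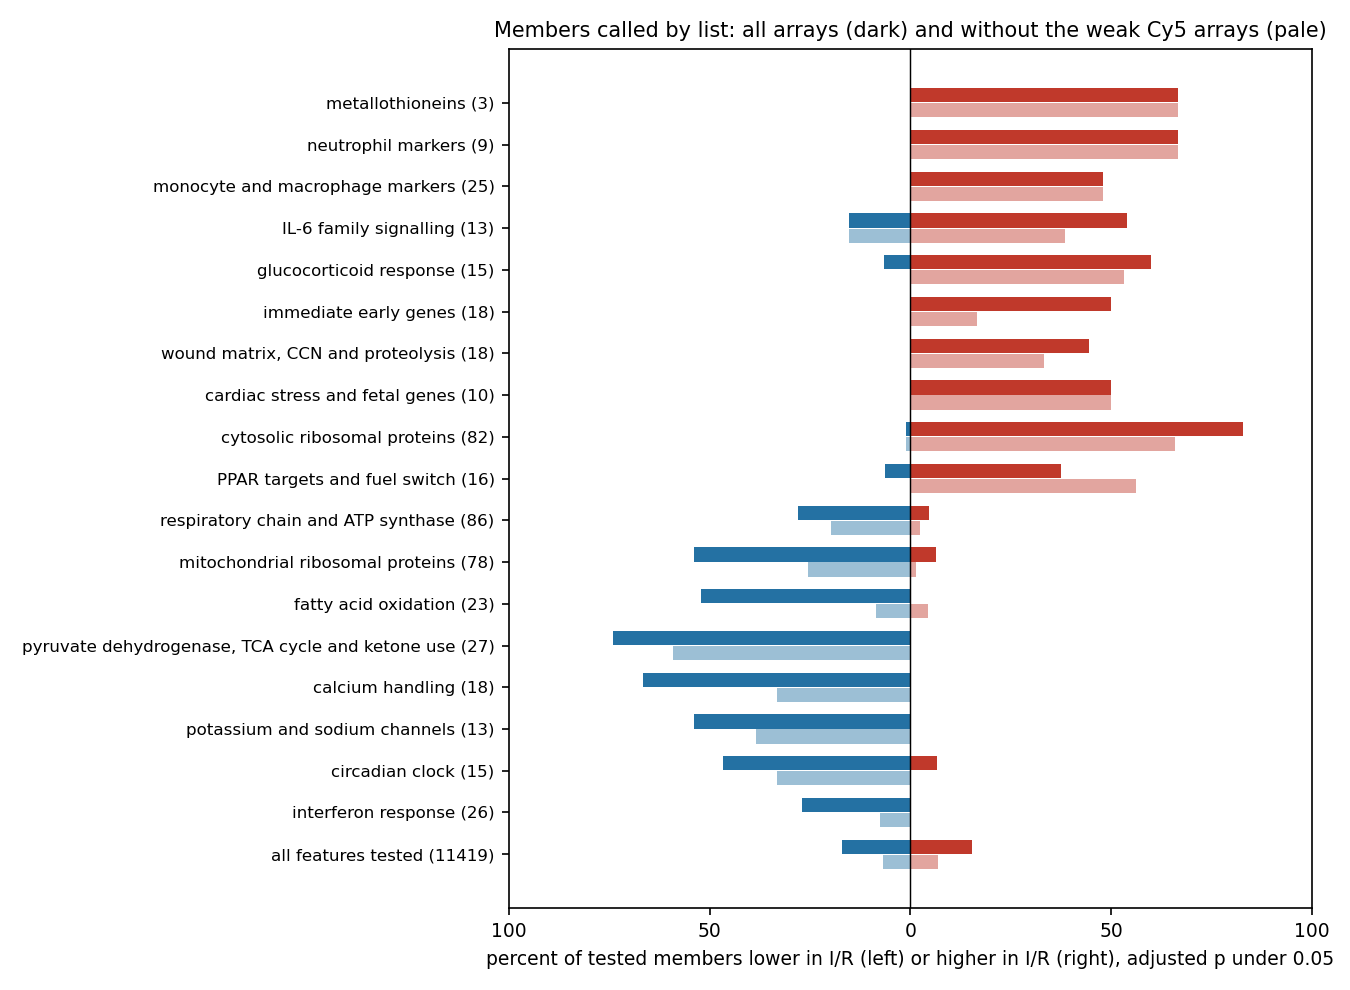
Percent of the tested members of each gene list that were called higher or lower in I/R than in sham tissue (horizontal axis), with all arrays in dark bars and without the 5 weak arrays in pale bars. For pyruvate dehydrogenase, TCA cycle and ketone use 20 of 27 members fell with all arrays and 16 without the weak ones, while for monocyte and macrophage markers 12 of 25 rose in both.

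Genes of wound matrix and proteolysis rose in part, and none of that list was called lower. Among its tested members 44.4% rose, beside 15.3% of all features. Timp1, an inhibitor of matrix metalloproteinases, had log2 ratios of 1.78, 3.30 and 3.49 on the I/R arrays, against -0.99, -0.93 and -0.76 on the sham arrays. The groups did not overlap, the difference was 3.75 ± 0.43 (adjusted p = 1.98e-05), and the call holds with the slide block. Its other probes differed by 0.98 and 1.01. Ccn2, a matricellular protein induced in injured tissue, had log2 ratios of 1.88, 2.83 and 3.32 on the I/R arrays, against -0.58, -0.24 and -0.07 on the sham arrays, a difference of 2.97 ± 0.53 (adjusted p = 0.000726). Of 18 members tested, 8 rose, against 6 without the weak arrays and 1 with the slide block. Adamts1, a secreted protease, differed by 1.5 but missed the threshold without the weak arrays (adjusted p = 0.532), and a dimmer probe differed by 0.15.

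Transcripts of cardiac stress rose in part and those of mature ventricular muscle fell in part. Among the cardiac stress and fetal genes tested 50% rose, beside 15.3% of all features. Myh7, the slow beta myosin heavy chain of the fetal mouse ventricle, had log2 ratios of 3.97, 4.26 and 1.06 on the I/R arrays, against -0.97, -1.31 and -0.26 on the sham arrays. I/R arrays 1 and 2 lay far above I/R array 3, all 3 lay above sham, and the difference was 3.94 ± 0.76 (adjusted p = 0.00127). Fhl1, a LIM protein induced by load, had log2 ratios of -0.09, 1.81 and 1.17 on the I/R arrays, against -2.65, -2.67 and -2.58 on the sham arrays, a difference of 3.59 ± 0.56 (adjusted p = 0.000266). Nmrk2, a kinase that makes NAD from nicotinamide riboside, rose by 2.88 (adjusted p = 0.00261) but missed the threshold without the weak arrays (adjusted p = 0.0885). Nppa, the atrial natriuretic peptide, had log2 ratios of 3.65, 4.51 and 4.49 on the I/R arrays, against 1.87, 2.73 and 2.56 on the sham arrays. Its difference of 1.83 ± 0.63 (adjusted p = 0.0326) also missed it there (adjusted p = 0.115), and a dimmer probe differed by 0.28. Of 10 cardiac stress and fetal genes tested, 5 rose and 0 fell, against 5 and 0 without the weak arrays and 1 and 0 with the slide block. Without only I/R arrays 2 and 3 2 rose, with Cy5 alone 3, and with median centring 0.

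Ckm, the muscle creatine kinase, had log2 ratios of -0.68, -1.16 and -1.40 on the I/R arrays, against 0.36, 0.33 and 0.36 on the sham arrays. Every I/R array lay below the pup reference and every sham array above it, with a difference of -1.43 ± 0.21 (adjusted p = 0.000164). Fhl2, a LIM protein of the sarcomere, had log2 ratios of 4.43, 3.93 and 4.11 on the I/R arrays, against 5.79, 5.88 and 5.60 on the sham arrays, a difference of -1.60 ± 0.22 (adjusted p = 0.000106). Both calls hold with the slide block. Myh6, whose values are given above, differed by -1.30 (adjusted p = 0.0167) and missed the threshold without the weak arrays (adjusted p = 0.624). Of 11 ventricular markers tested, 0 rose and 6 fell, against 0 and 4 without the weak arrays and 0 and 2 with the slide block. Their medians were -0.383, -1.2 and -1.49 on I/R arrays 1, 2 and 3, and the part of the weak heart channel in this was not tested. Among features with a sham ratio over 2, 55.1% of 207 fell.

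Thin filament genes fell in part. Actc1, the cardiac actin, had log2 ratios of 0.37, 0.14 and 0.04 on the I/R arrays, against 2.10, 2.23 and 2.14 on the sham arrays, a difference of -1.97 ± 0.31 (adjusted p = 0.000333). Lmod3, which nucleates actin filaments in muscle, had log2 ratios of 0.04, 0.02 and -0.39 on the I/R arrays, against 1.83, 1.66 and 1.86 on the sham arrays. The 3 I/R arrays lay near 0 and the difference was -1.89 ± 0.19 (adjusted p = 7.27e-06), which holds with the slide block. Of 15 thin filament genes tested, 0 rose and 6 fell (40%), against 0 and 2 with the slide block. Their median sham ratio was 1.79, and 62.1% of all features with a sham ratio of 1 to 2 fell. Of 22 Z-disc and LIM protein genes, 5 rose (22.7%) and 6 fell (27.3%), against 0 and 2 with the slide block. Over all features 15.3% rose and 17.1% fell.

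Genes of calcium handling and of ion channels fell in part, and none of either list was called higher. Pln, phospholamban, the brake on the calcium pump, had log2 ratios of 3.78, 0.73 and 1.01 on the I/R arrays, against 4.80, 4.36 and 4.72 on the sham arrays. I/R array 1 lay much nearer to sham than the other two, and the difference of -2.79 ± 0.69 (adjusted p = 0.00605) missed the threshold without the weak arrays (-0.85, adjusted p = 0.189). Srl, the calcium-binding sarcalumenin, fell by 1.26 on the log2 scale (adjusted p = 0.000247) and holds with the slide block. Jph2, which ties the sarcoplasmic reticulum to the cell membrane, fell by 1.97 on the log2 scale (adjusted p = 0.00244), with another probe at -0.83. Of 18 calcium handling genes tested, 12 fell (66.7%), against 2 with the slide block. Their median sham ratio was 1.28, and 62.1% of all features with a sham ratio of 1 to 2 fell. Of 13 potassium and sodium channel genes, with a median sham ratio of 1.13, 7 fell (53.8%), against 0 with the slide block. Among them, Kcnj11 and Abcc8, subunits of ATP-sensitive potassium channels, changed by -1.28 and -1.36 (adjusted p = 0.00837 and 0.00823).

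**Figure D4:**
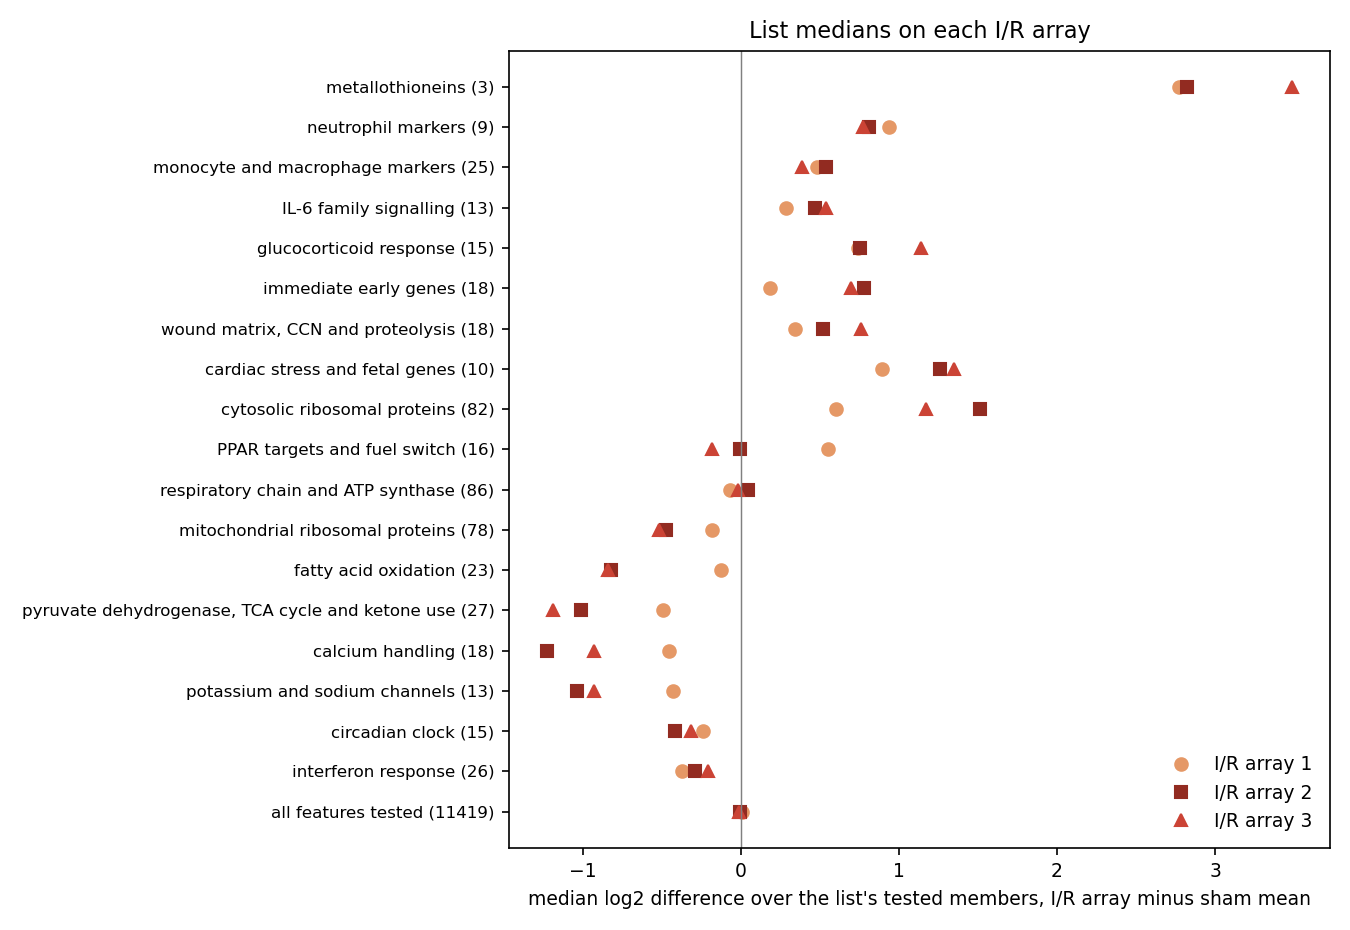
Median log2 difference from the sham mean (axis in log2 units) of the tested members of each gene list, with 1 symbol for each of the 3 I/R arrays. For calcium handling the medians were -0.45, -1.23 and -0.93 on I/R arrays 1, 2 and 3, and for neutrophil markers 0.94, 0.81 and 0.77.

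Most tested genes of pyruvate oxidation and the TCA cycle fell. Pdhb, a subunit of pyruvate dehydrogenase, had log2 ratios of 0.92, 0.03 and -0.10 on the I/R arrays, against 2.11, 2.07 and 2.10 on the sham arrays. The difference was -1.81 ± 0.19 (adjusted p = 8.8e-06), and a second probe differed by -1.85. Idh3b, a subunit of the NAD-dependent isocitrate dehydrogenase, fell by 1.65 on the log2 scale (adjusted p = 0.000629), and both calls hold with the slide block. Idh2, its NADP-dependent mitochondrial relative, had log2 ratios of 2.02, -0.02 and -0.09 on the I/R arrays, against 2.83, 2.53 and 2.67 on the sham arrays, a difference of -2.05 ± 0.50 (adjusted p = 0.0057). Of 27 genes of pyruvate dehydrogenase, the TCA cycle and ketone use tested, 0 rose and 20 fell (74.1%), against 0 and 16 without the weak arrays and 0 and 6 with the slide block. Their median sham ratio was 1.52, and 62.1% of all features with a sham ratio of 1 to 2 fell.

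Respiratory chain genes fell in part. Ndufa10, a subunit of complex I, had log2 ratios of 0.47, -0.51 and -0.59 on the I/R arrays, against 1.58, 1.55 and 1.57 on the sham arrays, a difference of -1.77 ± 0.26 (adjusted p = 0.000155) that holds with the slide block. Atp5e, the epsilon subunit of ATP synthase, had log2 ratios of 1.86, 3.21 and 3.21 on the I/R arrays, against 1.38, 1.42 and 1.28 on the sham arrays, a difference of 1.40 ± 0.42 (adjusted p = 0.0209) that missed the threshold without the weak arrays (adjusted p = 0.217). Slc25a3, the mitochondrial phosphate carrier, fell by 2.16 on the log2 scale (adjusted p = 0.000431) and holds with the slide block. Of 86 genes of the respiratory chain and ATP synthase tested, 4 rose and 24 fell (27.9%). Without the weak arrays 2 rose and 17 fell, and with the slide block 0 and 5. These counts moved with the processing: 0 rose and 60 fell with Cy5 alone, 0 and 58 with median centring, 0 and 33 with Agilent's ratio, and 31 and 29 with array quality weights. The list's median sham ratio was 1.6, a range in which 62.1% of all features fell, and its median difference was -0.0566.

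Fatty acid oxidation genes fell with all arrays but mostly not without the weak ones. Of 23 tested, 0 rose and 12 fell, against 1 and 2 without the weak arrays and 0 and 0 with the slide block. The medians were -0.123, -0.822 and -0.844 on I/R arrays 1, 2 and 3. With all arrays 52.2% of the list fell. Its median sham ratio was 1.38, and 62.1% of all features with a sham ratio of 1 to 2 fell. Hadha, the alpha subunit of the trifunctional protein, fell by 1.11 on the log2 scale (adjusted p = 0.00607). Acadm, the medium-chain acyl-CoA dehydrogenase, differed by -1.33 (adjusted p = 0.00286) and missed the threshold without the weak arrays (adjusted p = 0.0624).

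Some targets of the fatty acid receptors called PPARs rose. Angptl4, a secreted inhibitor of lipoprotein lipase, had log2 ratios of 1.24, 1.07 and 1.30 on the I/R arrays, against -2.92, -2.56 and -2.95 on the sham arrays. The I/R arrays lay close together, and the difference was 4.02 ± 0.64 (adjusted p = 0.000299). Pdk4, the kinase that shuts down pyruvate dehydrogenase, had log2 ratios of 3.18, 1.19 and 1.80 on the I/R arrays, against -0.28, -0.26 and -1.05 on the sham arrays. I/R array 1 was the highest of the 3, and the difference was 2.59 ± 0.70 (adjusted p = 0.0101). Plin2, a coat protein of lipid droplets, rose by 1.48 (adjusted p = 9e-05), while Ppara, the receptor itself, fell by 0.80 on the log2 scale (adjusted p = 0.00032), and both hold with the slide block. Of 16 PPAR targets and fuel switch genes tested, 6 rose (37.5%) and 1 fell (6.25%), beside 15.3% and 17.1% of all features. With the slide block 1 rose and 0 fell. Without the weak arrays 9 rose and 0 fell, and the list's median was 0.553 there, against -0.0315 with all arrays.

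Glycolytic genes moved both ways. Of the genes of glycolysis and glucose transport tested, 16.7% rose and 41.7% fell, beside 15.3% and 17.1% of all features. Their median sham ratio was 0.458, and 24.9% of features with a sham ratio of 0 to 1 fell. Pfkm, the muscle phosphofructokinase, had log2 ratios of 0.96, 0.27 and 0.52 on the I/R arrays, against 1.78, 1.73 and 1.82 on the sham arrays, a difference of -1.20 ± 0.13 (adjusted p = 1.4e-05) that holds with the slide block. Slc16a3, a lactate exporter, had log2 ratios of -0.98, 0.21 and 0.26 on the I/R arrays, against -2.05, -2.13 and -1.92 on the sham arrays, a difference of 1.86 ± 0.29 (adjusted p = 0.000283). Of 24 genes of glycolysis and glucose transport tested, 4 rose and 10 fell, against 1 and 7 without the weak arrays and 0 and 2 with the slide block.

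Transcripts of cytosolic ribosomal proteins were higher and those of mitochondrial ribosomal proteins lower. Of 82 cytosolic ribosomal protein genes tested, 68 rose (82.9%) and 1 fell, but with each array centred on its median in place of loess 0 rose and 1 fell, and the list's median was -1.24, below the median of all features (-0.514). In the loess values 1 rose and 0 fell with the slide as a block. The medians with loess were 0.602, 1.51 and 1.17 on I/R arrays 1, 2 and 3. These genes have many near-identical pseudogenes, so single values are uncertain. Their median sham ratio was -1.21, and 53.4% of features with a sham ratio of -2 to -1 rose. Rplp1 rose by 2.89 with loess (adjusted p = 0.00494) and was lower in I/R tissue with median centring. The gene that fell with loess was Rpl3l, a form made in striated muscle, which is named after its value was seen (-1.76, adjusted p = 0.00231).

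Of 78 mitochondrial ribosomal protein genes tested, 5 rose and 42 fell (53.8%), against 1 and 20 without the weak arrays and 0 and 5 with the slide block. Their median sham ratio was 0.787, and 24.9% of features with a sham ratio of 0 to 1 fell. Mrps9 fell by 1.21 on the log2 scale (adjusted p = 9e-05) and holds with the slide block.

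Genes of the circadian clock fell in part. Dbp, a transcription factor driven directly by the clock, had log2 ratios of 1.89, 0.87 and 1.14 on the I/R arrays, against 3.12, 2.79 and 2.98 on the sham arrays, a difference of -1.67 ± 0.24 (adjusted p = 0.000125). Tef, a close relative, fell by 1.08 on the log2 scale (adjusted p = 8.05e-05), and both calls hold with the slide block. Nfil3, a repressor at the same DNA sites, differed by 0.90 (adjusted p = 0.00348) but missed the threshold without the weak arrays (adjusted p = 0.24). Of 15 clock genes tested, 1 rose and 7 fell, against 0 and 5 without the weak arrays and 0 and 4 with the slide block. With all arrays 6.67% of the list rose and 46.7% fell, beside 15.3% and 17.1% of all features. The list's median sham ratio was 0.518, and 24.9% of features with a sham ratio of 0 to 1 fell. With median centring the list's median lay 0.03 above that of all features. The labels do not state the hours of surgery and harvest.

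Of 26 interferon-responsive genes tested, 0 rose and 7 fell (26.9%), against 0 and 0 with the slide block. Their median sham ratio was 0.36, and 24.9% of features with a sham ratio of 0 to 1 fell. Gbp2, an interferon-induced GTPase, had log2 ratios of 0.01, -0.13 and 0.08 on the I/R arrays, against 1.33, 0.67 and 0.86 on the sham arrays. It was not well above background on any I/R array and was at least 1.9-fold lower in I/R tissue (means of -0.01 in I/R and 0.95 in sham tissue, adjusted p = 0.00335).

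Muscle ubiquitin ligases, to which MuRF1 belongs, and adaptors of the Asb family fell in part. Asb2, an adaptor that directs filamins to degradation, had log2 ratios of 1.62, 0.24 and 0.15 on the I/R arrays, against 2.61, 2.64 and 2.68 on the sham arrays, a difference of -1.98 ± 0.46 (adjusted p = 0.00432). Asb10 and Asb11 changed by -1.76 and -1.83 (adjusted p = 0.00367 and 0.00283). Of 19 genes tested, 3 rose (15.8%) and 9 fell (47.4%), against 0 and 0 with the slide block. Their median sham ratio was 1.06, and 62.1% of all features with a sham ratio of 1 to 2 fell. Among proteasome subunits 6.98% rose and 27.9% fell, beside 15.3% and 17.1% of all features. The median sham ratio of the subunits was 0.307, and 24.9% of features with a sham ratio of 0 to 1 fell. Of 43 proteasome subunits, 3 rose and 12 fell, against 3 and 4 without the weak arrays and 0 and 1 with the slide block.

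The remaining lists are given by their counts, to be read against the 15.3% of all features that rose and the 17.1% that fell, 6.80% and 6.73% without the weak arrays. Of 16 targets of hypoxia, 3 rose and 4 fell, against 0 and 1 without the weak arrays and 0 and 0 with the slide block. Of 22 genes of ER stress and the ATF4 response, 5 rose and 3 fell, against 2 and 0 without the weak arrays and 1 and 0 with the slide block. Of 15 genes of cell death and growth arrest, 5 rose and 2 fell, against 3 and 0 without the weak arrays and 1 and 0 with the slide block. Of 14 genes of the thick filament and titin, 1 rose and 4 fell, against 1 and 1 without the weak arrays and 0 and 0 with the slide block. Of 10 genes of creatine and adenylate kinases, 0 rose and 6 fell, against 0 and 4 without the weak arrays and 0 and 1 with the slide block. Of 22 mitochondrial and metabolic regulators, 0 rose and 8 fell, against 0 and 4 without the weak arrays and 0 and 2 with the slide block. Of 13 cell cycle genes, 3 rose and 1 fell, against 2 and 1 without the weak arrays and 0 and 1 with the slide block. Of 3 nuclear noncoding RNAs, 3 rose and 0 fell, against 1 and 0 without the weak arrays and 1 and 0 with the slide block.

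Markers of other cell types were also counted, to be read against the 15.3% of all features that rose and the 17.1% that fell. The shares of endothelial (20% lower), smooth muscle and pericyte (20% lower) and fibroblast markers (16.7% higher) lie near these. None of these lists kept a call with the slide block. Of 20 endothelial markers, 1 rose and 4 fell, against 0 and 3 without the weak arrays. Among them, Kdr, a receptor for VEGF, fell by 0.66 on the log2 scale (adjusted p = 0.021). Of 10 smooth muscle and pericyte markers, 1 rose and 2 fell, against 0 and 3 without the weak arrays. Among these, Rgs5, a marker of pericytes, fell by 1.47 on the log2 scale (adjusted p = 0.000254). Of 18 fibroblast markers, 3 rose and 0 fell, against 0 and 0 without the weak arrays. The fibroblast medians were 0.0275, 0.705 and 0.609 on I/R arrays 1, 2 and 3. Of 5 adipocyte markers, 4 rose and 0 fell, against 1 and 0 without the weak arrays. Of 11 skeletal muscle markers, 4 rose and 2 fell, against 1 and 0 without the weak arrays. Of 5 epicardial and mesothelial markers, 4 rose and 0 fell, against 2 and 0 without the weak arrays. Of 10 atrial cardiomyocyte markers, 2 rose and 1 fell, against 1 and 0 without the weak arrays. Of 3 red blood cell markers, 0 rose and 0 fell, against 0 and 1 without the weak arrays. Of 3 lung airway markers, 0 rose and 0 fell, against 0 and 0 without the weak arrays. The 1 lymphocyte marker tested did not pass. With median centring the medians of the endothelial, fibroblast, smooth muscle, skeletal muscle and red blood cell lists changed sign relative to that of all features. The part of these cells in the results was not tested.

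Whether the I/R effect below the tie differed between MuRF1 Tg+ and wild-type hearts was tested as a difference of differences. With limma 2 of 11419 features passed (0.0175%), with 1196 at an unadjusted p under 0.05. None passed with Agilent's ratio, with median centring or with the slide as a block, 13 passed without the weak arrays, and 2030 passed without the wild-type I/R array whose heart channel was weak. Sprr2b, a cornifin-like gene of epithelia, had log2 ratios of -0.11, 0.07 and -0.11 on the I/R arrays, against 1.22, 1.48 and 1.13 on the sham arrays. I/R minus sham was -1.33 in MuRF1 Tg+ and -0.08 in wild-type tissue, a difference of -1.25 ± 0.13 (adjusted p = 0.000189). Sprr2k had log2 ratios of 0.04, -0.05 and 0.11 on the I/R arrays, against 0.85, 0.96 and 0.85 on the sham arrays, and its effect was -0.85 in MuRF1 Tg+ and 0.01 in wild-type tissue, a difference of -0.86 ± 0.11 (adjusted p = 0.000781). Both were well above background on 1 of 3 I/R arrays and on all sham arrays of MuRF1 Tg+ hearts. Their levels in wild-type tissue are not given here. Whether a low level in wild-type sham tissue left little room to fall was not tested. The calls between I/R and sham tissue hold with the slide block for both. Above the tie in the same MuRF1 Tg+ hearts, I/R minus sham was -1.31 for Sprr2b and -0.88 for Sprr2k. The Sprr2 genes are near-identical copies, so their probes may read each other's transcripts. Mt2 rose by 6.18 in MuRF1 Tg+ and by 5.13 in wild-type tissue, a difference of 1.04 ± 1.06 (adjusted p = 0.668). Neat1, a nuclear noncoding RNA, had log2 ratios of -0.76, -0.04 and 0.72 on the I/R arrays, against -2.06, -2.53 and -1.74 on the sham arrays. Its effect was 2.08 in MuRF1 Tg+ and -0.08 in wild-type tissue, and the difference missed the threshold (adjusted p = 0.185), while the call within MuRF1 Tg+ holds with the slide block.

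The effect below the tie was also set against that above it in the same MuRF1 Tg+ hearts. None of 11419 features passed with limma (0%), with 716 at an unadjusted p under 0.05, and 6 passed without the weak arrays. Ndufc2, a subunit of complex I, had log2 ratios of 0.19, -0.06 and 0.03 on the I/R arrays, against 0.72, 0.88 and 0.79 on the sham arrays. Its effect was -0.74 below and -0.08 above the tie (adjusted p = 0.099 for the difference). Ctps, which makes CTP, had log2 ratios of 1.61, 1.49 and 1.81 on the I/R arrays, against 0.61, 0.44 and 0.33 on the sham arrays, and its effect was 1.17 below and 0.23 above the tie (adjusted p = 0.241). Both genes were called between I/R and sham tissue below the tie, and both calls hold with the slide block. The main fit took the pieces of a heart as separate arrays. With the heart as a random block, 0 features passed for the difference between pieces. A p that misses the threshold does not show that the pieces responded alike.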

How the data were processed

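Heart RNA (Cy5) and pooled pup RNA (Cy3) were hybridised to 24 arrays, in 8 groups of 3, from 50 ng of total RNA each, per the labels. A label protocol names the Cy3 nucleotide for amplification, while the dye fields give Cy5 for heart, which was followed. No dye swap was found in the labels. The intensity values are the spot and local background signals that Feature Extraction 9.5.3.1 wrote, per the file headers. Its log10 ratio of Cy5 over Cy3, background-subtracted and dye-normalised per the file headers, was an alternative. The deposited value table holds log2 values that matched that ratio with a correlation of 1 and a slope of 1 on kept probes of all 24 arrays.

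With limma 3.58.1 in R 4.3.3, signals were corrected with normexp (offset 50) and loess, with control and flagged spots at weight 0 in loess, and duplicate spots were averaged. Of 41174 probes, 15412 were kept because every array of some group had a Cy5 signal well above background, and the probe with the highest mean Cy5 signal stood for each gene, which left 11419 features. Accessions named 22951 probes through the RefSeq table, 3109 older symbols were updated, and 15114 probes kept the array's own name. Group means were fitted on 24 arrays with 16 residual degrees of freedom, eBayes and Benjamini-Hochberg adjustment at 0.05. Data for this comparison were simulated with 11344 genes. Of 100 genes changed by 1 log2 unit 82% were recovered, and of 100 changed by 2 97%, with 11 false calls. The simulated noise was independent, with 1 spread per gene for all groups and no shift with the sham level. The I/R arrays had a wider spread than the sham arrays and such a shift, so these rates do not carry over to them. No spot was saturated, and the number of arrays limits the precision.

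Replicate numbers do not pair animals between I/R and sham. Their p-values measure the spread between samples labelled as biological replicates. Named genes are Trim63, the 12 largest increases and decreases, the leading genes of each difference of effects, and up to 4 called members of each of 45 lists, of which a part is described, and 1 gene of the rule is not reported here. Members and lists were chosen with earlier results of these data known.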

Additional observations from a re-analysis of the deposited data

Results flagged for a closer look

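The I/R effect below the tie differed between MuRF1 Tg+ and wild-type hearts for Sprr2b and Sprr2k by the limma test of the difference itself. For Sprr2b the effect in MuRF1 Tg+ minus that in wild type was -1.25 on the log2 scale, and for Sprr2k it was -0.86. Within MuRF1 Tg+, all 3 I/R arrays lay below all 3 sham arrays for both genes. In these hearts both were well above background on all 3 sham arrays but on only 1 of 3 I/R arrays. Wild-type levels are not given here, and whether a low level in wild-type sham tissue left little room to fall was not tested. Both are members of a family of near-identical copies. Above the tie in the same hearts, I/R minus sham was -1.31 for Sprr2b and -0.88 for Sprr2k, against -1.33 and -0.85 below it. The difference between genotypes passed for no feature with Agilent's ratio, median centring or the slide as a fixed block.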

How the results depend on the processing

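The count of features called between I/R and sham tissue was 3703. It was 2159 for probes with Cy5 well above background on all 6 arrays, 6203 with array quality weights, 249 with the slide as a fixed block, 1544 without the weak Cy5 arrays and 155 without I/R arrays 2 and 3. Leaving out 1 array at a time gave 1876 to 4789, with 1876 without I/R array 2, 1968 without I/R array 3 and 2245 without sham array 1. For probes well above background on all 6 arrays, settings chosen after seeing the data gave 176 without I/R arrays 2 and 3, 1863 in a fit of these 6 arrays alone and 2016 with Agilent's ratio. The replicate block gave 3392. The same numbers did not deviate together in every pair (correlations 0.255, -0.0398 and 0.0842), and 1 of 3 samples correlated best with its own number. The difference from wild type had 2 calls, Sprr2b and Sprr2k, each well above background on 1 of 3 I/R arrays. A filter for probes bright on all 6 arrays leaves both out before testing, so its count of 0 says nothing of them. The difference from wild type gave 0 with Agilent's ratio, median centring, the deposited value table and the slide as a fixed block. It gave 4 with Cy5 alone, 13 without the weak arrays, 5087 with array quality weights and 2 to 2030 leaving out 1 array at a time, with 2030 without wild-type I/R array 1 and 356 without MuRF1 Tg+ I/R array 1. The difference between pieces, with 0 calls, gave 1 with no filter on dim probes, 6 without the weak arrays, 816 with array quality weights and 0 to 61 leaving out 1 array at a time, with 61 without I/R array 1 below the tie and 2 without I/R array 3 above it. With median centring these called genes changed sign: Atp5e (-1.38), Cebpb (-0.28), Ctps (-0.40), Ddit4 (-0.075), Gpx1 (-1.16), Hspb1 (-0.65), Nfil3 (-0.13), Nppa (-0.077), Plin2 (-0.43) and Rplp1 (-0.41). Atp5e was at -0.37 with Cy5 alone. The causes were not tested. A weak Cy5 signal limits what can be read for dim probes.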
